A study of Rattus norvegicus with 4 samples.

Results

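The genes of the cytoskeleton were followed in the testis of male Sprague Dawley rats, an outbred strain, after 4 days of treatment with an antibody against rat FSH. Follicle-stimulating hormone is the pituitary hormone whose receptor, in the testis, is carried by Sertoli cells. The set held the actins, alpha-actinins, tropomyosins, calponins, myosin heavy and light chains, unconventional myosins, tubulins and keratins by symbol. Caldesmon (Cald1), transgelin (Tagln), profilin (Pfn1), thymosin beta 4 (Tmsb4x), stathmin (Stmn1), ezrin (Ezr), moesin (Msn), vimentin (Vim) and desmin (Des) were added by name. A probe set, a group of probes read together for 1 transcript, was taken where the platform annotation paired it with exactly 1 of these symbols. This gave 66 genes of the 4736 that the array reads with such a probe set, and 106 of its 8799 probe sets. Cfl1, Tmsb10 and Vil1 were named in the rule but had no probe set of their own, and 22 probe sets that the annotation gives to several genes were left out. Among these were 2 for Myh9, the nonmuscle myosin heavy chain, which the annotation lists under several gene entries of that symbol; their values are given with the heavy chains.

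RNA was measured on 4 Affymetrix rat U34 arrays, 2 per group. The control_IgG group received sheep immunoglobulin and the FSH_antibody group received an anti-rat FSH antibody raised in sheep, each for 4 days, and no transgene or deletion is named in either group. The labels do not settle the age: the series design starts treatment at day 14, while the treatment protocol starts it at day 18 and collects testes at day 22. The source names give day 18, and the title of antibody array 2 names postnatal day 4, so its group rests on its source name. Each source name gives 1 rat, whereas the extraction protocol describes a pool of about 20 organs, called ovaries there. Whether an array stands for 1 animal or a pool is therefore not settled, and p-values measure only the spread between these RNA samples. Of 5252 probe sets bright enough to test, 14 (0.267%) passed limma's test at an adjusted p under 0.05, and array medians lay between 36.5 and 40.4 intensity units. The whole testis mixes many cell types, so fewer cells of a type and less RNA per cell cannot be told apart in any value given here.

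Actin filaments are built from actin monomers, and tropomyosin, caldesmon and calponin lie along them. Myosin motors, made of heavy chains with bound light chains, pull on actin filaments. Microtubules are polymers of alpha and beta tubulin that start from gamma-tubulin complexes, and vimentin, desmin and keratins form intermediate filaments. In the seminiferous tubule the flattened peritubular myoid cells carry smooth-muscle actin and myosin and contract the tubule wall. Sertoli cells hold actin bundles at their junctions, long microtubule arrays along their axis and a cage of vimentin around the nucleus. FSH acts on Sertoli cells largely through cyclic AMP, and cell culture work has long tied cyclic AMP to changes of Sertoli cell shape and actin arrangement.

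The promoters of Actg1 and Myl6 are shown because each holds an element known from this biology. The CArG box is the site of serum response factor, known for actin and muscle genes, and the cAMP response element TGACGTCA is the site of CREB-family proteins. Of the 66 member genes, 55 had a promoter in the RefSeq table of build GRCr8 (60 promoters in all), and both strands of the 250 bases before each gene start were searched. The capitals mark the motif. The Actg1 promoter lies at chr10:106120952-106121201 on the minus strand, with its CArG box starting 90 bases before the gene start. The Myl6 promoter lies at chr7:1498344-1498593 on the minus strand, with its cAMP response element starting 28 bases before the gene start.
Actg1: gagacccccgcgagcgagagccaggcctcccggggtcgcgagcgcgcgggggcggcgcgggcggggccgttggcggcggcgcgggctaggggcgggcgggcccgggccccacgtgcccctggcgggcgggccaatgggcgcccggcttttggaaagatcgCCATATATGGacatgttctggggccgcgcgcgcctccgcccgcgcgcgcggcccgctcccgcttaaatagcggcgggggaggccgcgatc
Myl6: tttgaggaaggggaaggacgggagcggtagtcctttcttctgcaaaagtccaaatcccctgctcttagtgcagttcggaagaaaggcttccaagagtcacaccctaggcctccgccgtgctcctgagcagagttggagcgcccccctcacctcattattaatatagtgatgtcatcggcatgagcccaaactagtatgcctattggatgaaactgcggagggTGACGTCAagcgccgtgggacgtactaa

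The CArG box was found in 5 of the 60 member promoters (8.33%), those of Acta1, Actg1, Myh4, Myl3 and Myo1e, and in 1.5% of all 33469 promoters in the table. The full cAMP response element was found in 1 member promoter (1.67%), that of Myl6, and in 1.59% of all promoters. Its shorter form TGACG, which lies within the full element, was found in 19 member promoters (31.7%) and in 18.2% of all. A match is a description of these letters only. Neither gene shown stood out on the arrays: Actg1, cytoplasmic gamma-actin, differed by 0.07 ± 0.15 (log2, antibody minus control, ± SE) and Myl6, a nonmuscle and smooth-muscle essential light chain, by −0.02 ± 0.18.

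No member probe set passed the test between FSH_antibody and control_IgG arrays. Values were taken as log2 of the intensity plus 16, and a probe set was tested where its mean reached the 40th percentile of the array. In all, 62 member probe sets of 44 genes were tested and 44 were too dim, among them every probe set of 22 genes. No untested member exceeded an intensity of 40.5 on any array. At an adjusted p under 0.05, 0 of the 62 were called, against 0.267% of all tested probe sets, and the smallest adjusted p of a member was 0.534. At an unadjusted p under 0.05 there were 3 members (4.84%), against 8.11% of all: 2 were higher (3.98% of all) and 1 lower (4.13% of all). They were Cnn3 and a Tpm1 probe set, with higher values after the antibody, and a Myh3 probe set, with lower values. Under quantile scaling or median centring of the arrays there were 4, with 1 higher (Cnn3) and 3 lower (Myh3, Cald1 and Tubgcp4). The share over all tested probe sets is not given for these settings, so their counts are no result about the members.

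The member changes were small in size. Their median log2 change was −0.02, against 0.03 over all tested probe sets, and their median size without sign was 0.107, against 0.157. Values after the antibody were higher for 29 of the 62, against 55.3% of all. In this fit, on log2 of the intensity plus 16, none differed by 1.5-fold or more (3.92% of all did). On the same scale 13 (21%) differed by at least 0.25, against 29.3%. The added 16 makes the folds of dim probe sets smaller than those of their intensity. A dim Tpm1 probe set read 25.7 and 19.6 in controls and 36.5 and 35.1 after the antibody. Its change reached 0.65 under an alternative processing, and that of Myh3 passed 1.5-fold under median centring, at −0.59. The groups did not overlap for 20 members (32.3%), against 37.4% of all tested probe sets: 9 were higher in both antibody arrays (21.9% of all) and 11 were lower (15.5%). Bright probe sets varied less between arrays of a group, with a median SD (log2) of 0.153 among the 1313 brightest and 0.175 among the rest. Among the 1313 brightest tested probe sets, however, the median size was 0.121 overall and 0.084 for the 23 members, a description without a test.

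A p-value above the threshold does not show that a gene was unaffected, so the intervals matter. The 95% interval of every one of the 62 tested members lay within 2-fold in either direction, as it did for 92.7% of all tested probe sets. For 34 members (54.8%) it lay within 1.5-fold, against 46.4% of all. The lowest bound was −0.98, for Myh3, and the highest was 0.90, for a Tpm1 probe set. On this scale, changes larger than 2-fold therefore lay outside the interval of each tested member, while changes of about 1.5-fold could not be told from 0 for many. For dim members the same bound stands for a larger fold of the intensity itself, so 2-fold changes of their intensity are not excluded.

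**Figure D1:**
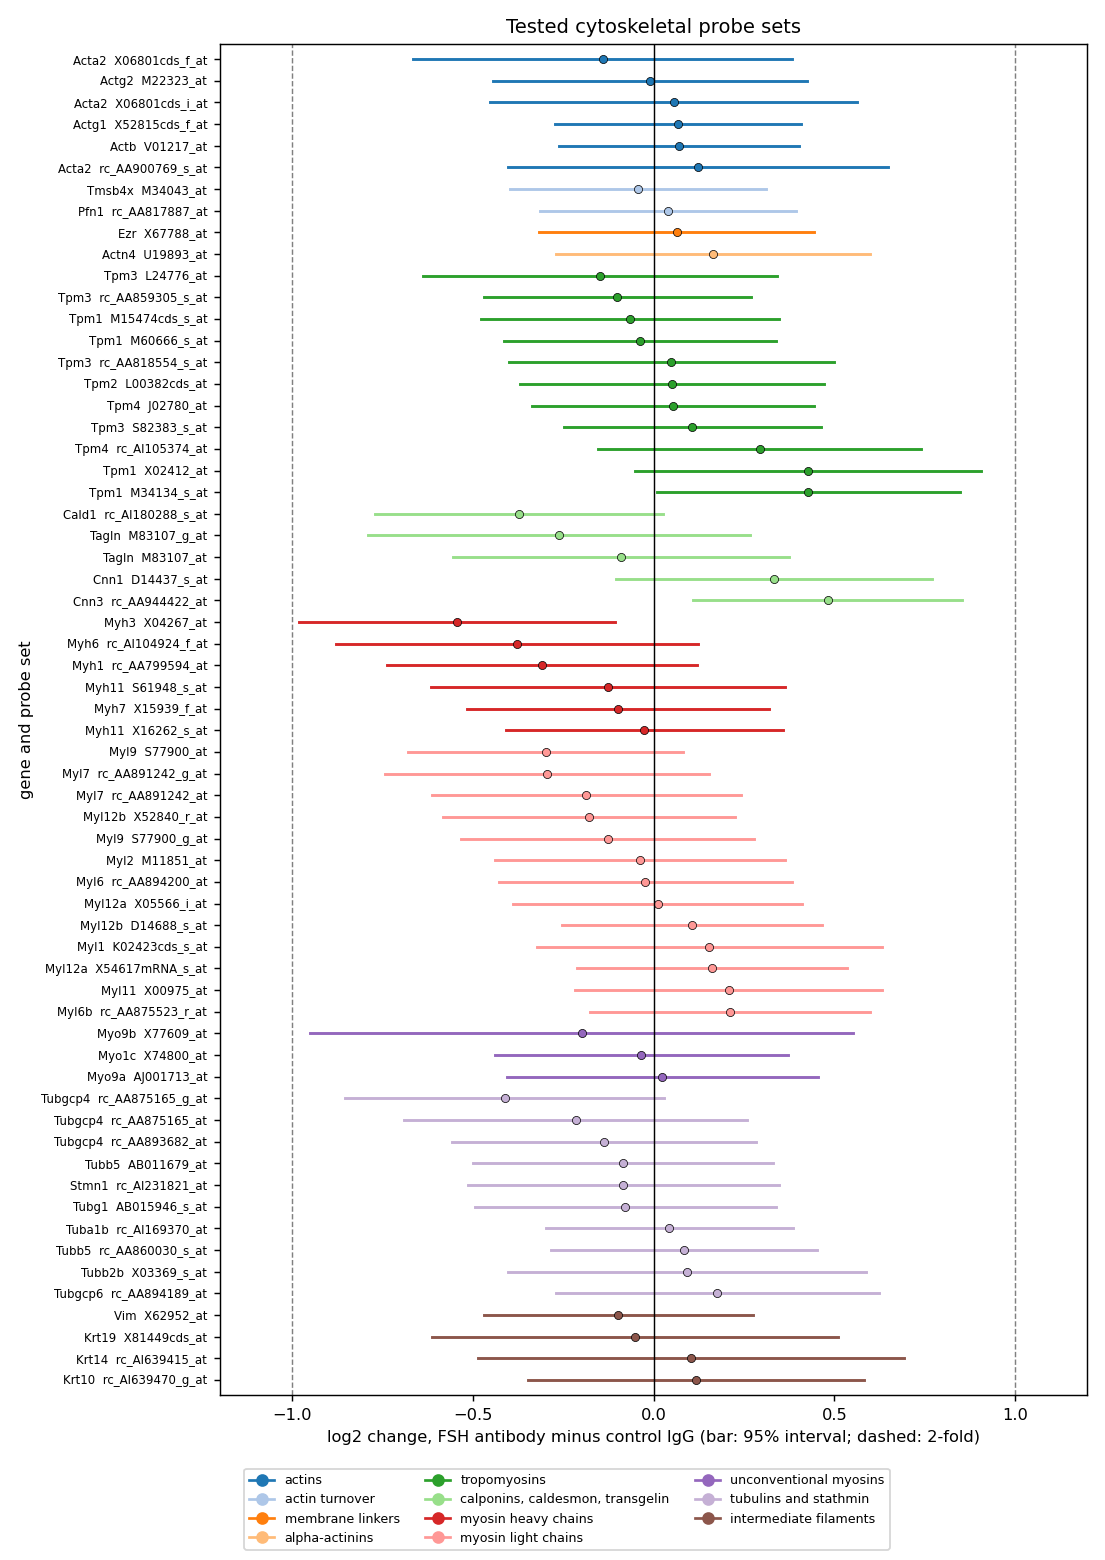
Log2 change (antibody minus control) of the tested member probe sets, grouped by role, with points for the fitted change and bars for its 95% interval from limma. The intervals of Cnn3, Myh3 and a Tpm1 probe set miss 0 without adjustment, and no bar reaches 1 on either side.

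**Figure D2:**
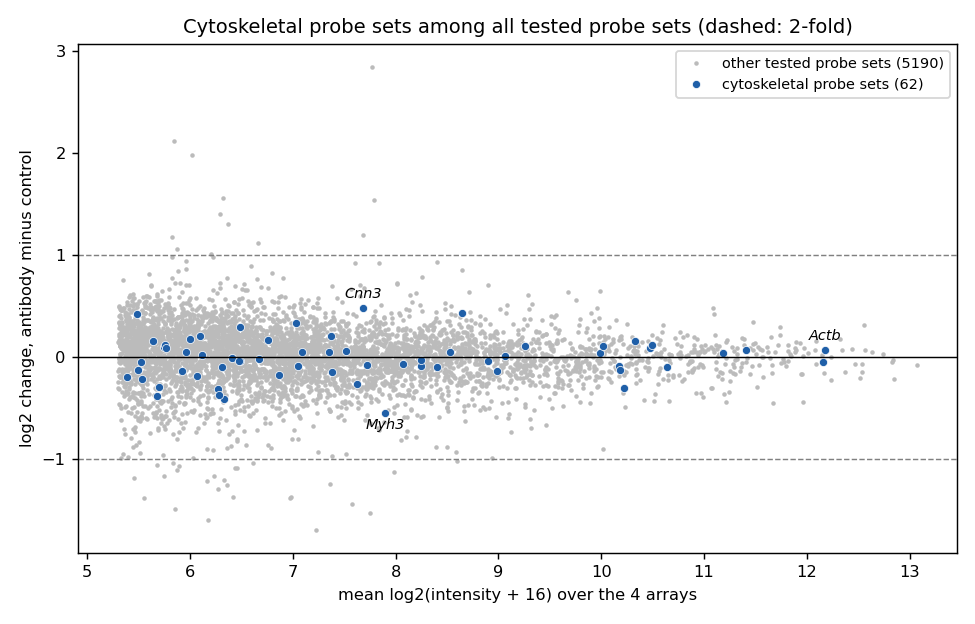
Log2 change against mean log2 intensity for the other tested probe sets (grey) and the 62 tested members (blue), 1 point per probe set. The members lie close to 0 over the whole range of intensity, between −0.54 and 0.48.

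The cytoplasmic actins, which form the filaments of every cell, lay close together on the 4 arrays in their member probe sets. Actb, beta-actin, read 4439.9 and 4583.0 in controls and 4483.0 and 5004.2 after the antibody. Antibody array 2 was the highest, and antibody array 1 lay between the controls. The log2 change was 0.07 ± 0.15 (95% interval −0.26 to 0.40, adjusted p = 0.938). Actg1 read 2612.3 and 2682.9 in controls and 2641.8 and 2912.2 after the antibody, the same order as Actb. Its probe set is of the kind that can also pick up near-identical actins. A left-out probe set shared by Actb, Actg1 and Actg1l1 read 4193.4 and 4145 in controls and 4012.9 and 3462.9 after the antibody. It was lower without overlap, at −0.16 ± 0.15 (adjusted p = 0.851). Another probe set shared by the same genes gave 0.002 ± 0.14 with overlapping groups.

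The probe set of beta-actin used as a control on the array, 3′ of the transcript, read 5316.1, 5006.5, 5221.5 and 5218.6 on control arrays 1 and 2 and antibody arrays 1 and 2, so those levels also lay close together. The 5′ probe set of the same transcript read 2391.5, 2747.4, 2262.6 and 2430.8. The log2 difference between 3′ and 5′, a measure of how complete the RNA was, averaged 1.01 ± 0.20 (SD, n = 2) in controls and 1.15 ± 0.07 (SD, n = 2) after the antibody. The groups overlapped, with an exact two-sided permutation p of 0.667, where 0.333 is the smallest that 2 against 2 arrays can give. The same difference was taken for GAPDH, another control transcript on the array. It averaged −0.05 ± 0.15 (SD, n = 2) in controls and −0.07 ± 0.008 (SD, n = 2) after the antibody, again with overlapping groups.

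Smooth-muscle alpha-actin, Acta2, the main actin of peritubular myoid cells, had 3 probe sets, and antibody array 1 was the highest and antibody array 2 the lowest in each. The probe set with the highest intensity read 1443.5 and 1292.5 in controls and 1932.9 and 1144.2 after the antibody. Both controls thus lay between the antibody arrays. The 3 changes were 0.12 ± 0.23, 0.05 ± 0.23 and −0.14 ± 0.23, and the first had a 95% interval of −0.40 to 0.65. Actg2, the smooth-muscle gamma-actin, read 67.6 and 70.8 against 58.5 and 79.9, a change of −0.01 ± 0.19. Acta1, the skeletal-muscle actin, was too dim to test, at 9.6 to 14.9.

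Actin turnover depends on proteins that hold or deliver monomers. Tmsb4x, which sequesters actin monomers, read 4282.7 and 5007.8 in controls and 4240.6 and 4759.4 after the antibody. Array 1 of each group was low and array 2 high, and the change was −0.04 ± 0.16 (95% interval −0.40 to 0.31). Pfn1, profilin, which loads monomers onto growing filament ends, read 974.1, 992.7, 980.7 and 1043.5 on control arrays 1 and 2 and antibody arrays 1 and 2, a change of 0.04 ± 0.16. Its 4 values spanned a narrow range, and the antibody arrays overlapped the controls. Cfl1 was left out because both of its probe sets are shared with Cfl1l1. The brighter read 796.9 and 870.6 in controls and 661.9 and 638.5 after the antibody, −0.35 ± 0.16 (adjusted p = 0.634). The other gave −0.19 ± 0.17, also lower without overlap. The shared probe set of Tmsb10, left out too, gave −0.10 ± 0.17 with overlapping groups.

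Ezrin, which ties actin to the plasma membrane, and alpha-actinin 4, which cross-links filaments, gave small positive values. Ezr read 154.7 and 173.1 in controls and 171.3 and 172.2 after the antibody, a change of 0.06 ± 0.17. Actn4 read 99.6 and 74.5 in controls and 90.8 and 106.9 after the antibody, a change of 0.16 ± 0.19. In both genes the groups overlapped. Both Msn probe sets, for the related linker moesin, lay at 1.4 to 24.1, and Actn2, the sarcomeric alpha-actinin, at 7.0 to 24.5; these were not tested.

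The calponins and caldesmon, regulators of actomyosin, were the role group that spread most. Cnn3, the calponin found outside muscle, read 154.8 and 161.0 in controls and 224.4 and 229.3 after the antibody. Both antibody arrays lay clear above both controls, and arrays of a group were close together. The change was 0.48 ± 0.17 (95% interval 0.11 to 0.85), with an unadjusted p of 0.0166 and an adjusted p of 0.534. Its second probe set was dim, at 0.9 to 13.9.

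Cnn1, smooth-muscle calponin, read 85.8 and 117.8 in controls and 122.2 and 140.3 after the antibody, a change of 0.33 ± 0.19 (adjusted p = 0.714) that ran from 0.14 to 0.53 with 1 array left out. The groups did not overlap, though antibody array 1 lay near control array 2. Cald1, caldesmon, read 70.6 and 74.8 in controls and 53.4 and 51.6 after the antibody, the opposite order, with a change of −0.37 ± 0.18 (95% interval −0.77 to 0.03, adjusted p = 0.634). Tagln, transgelin, an actin binder of smooth muscle, had 2 probe sets that were each highest on control array 2 and lowest on antibody array 2. They read 106.3, 137.2, 132.9 and 95, and 154.3, 257.2, 179.7 and 149.1, on control arrays 1 and 2 and antibody arrays 1 and 2. The changes were −0.09 ± 0.21 and −0.26 ± 0.24. The 4 genes of the group had a median change of 0.03, with a range from −0.37 to 0.48.

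Among tropomyosins, the coiled coils along actin filaments, probe sets of 1 gene did not share a direction. One Tpm1 probe set read 364.4 and 298.1 in controls and 404.2 and 498.8 after the antibody, a change of 0.43 ± 0.19 (95% interval 0.01 to 0.85, unadjusted p = 0.0466, adjusted p = 0.610). A dimmer one read 25.7 and 19.6 against 36.5 and 35.1, also 0.43 but with an SE of 0.21 (adjusted p = 0.653). In both, the antibody arrays lay above the controls. The probe set with the highest intensity read 441.6 and 495.3 against 472.2 and 439.0, overlapping, with a change of −0.04 ± 0.17. A further Tpm1 probe set read 231.2 and 292.1 against 233.8 and 262.4, at −0.07 ± 0.18, and the remaining one lay at 2.4 to 6.7.

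Tpm1 makes several transcripts by splicing, and the array annotation does not say which of them each probe set reads. The difference between the first Tpm1 probe set and the overlapping one (log2) was 0.47 greater after the antibody, and that for the dimmer probe set was 0.46 greater. These 2 pairs were chosen after their values were seen. Each exact two-sided permutation test gave a p of 0.333, also after adjustment over both, which is the smallest that 2 against 2 arrays can give.

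Most probe sets of the other tropomyosins were near 0. Tpm3, with 4 tested probe sets, gave changes of 0.11 ± 0.16, 0.05 ± 0.20, −0.10 ± 0.16 and −0.15 ± 0.22. The probe set of the highest intensity read 1024.8 and 941.1 in controls and 1065.8 and 1052.6 after the antibody, without overlap. Another separated the groups the other way, at 340.9 and 325.9 against 307.9 and 311.9. Tpm2, the beta chain of muscle, read 125.3, 166.3, 154.8 and 145.9 on control arrays 1 and 2 and antibody arrays 1 and 2, a change of 0.05 ± 0.19. Tpm4 gave 0.05 ± 0.17 and 0.29 ± 0.20 from 2 probe sets, the second with antibody arrays at 69.9 and 98.5 above controls at 61.7 and 68.3 and a change that ran from 0.09 to 0.50 with 1 array left out. The remaining Tpm3 probe set, at 5.1 to 21.0, was too dim to test.

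**Figure D3:**
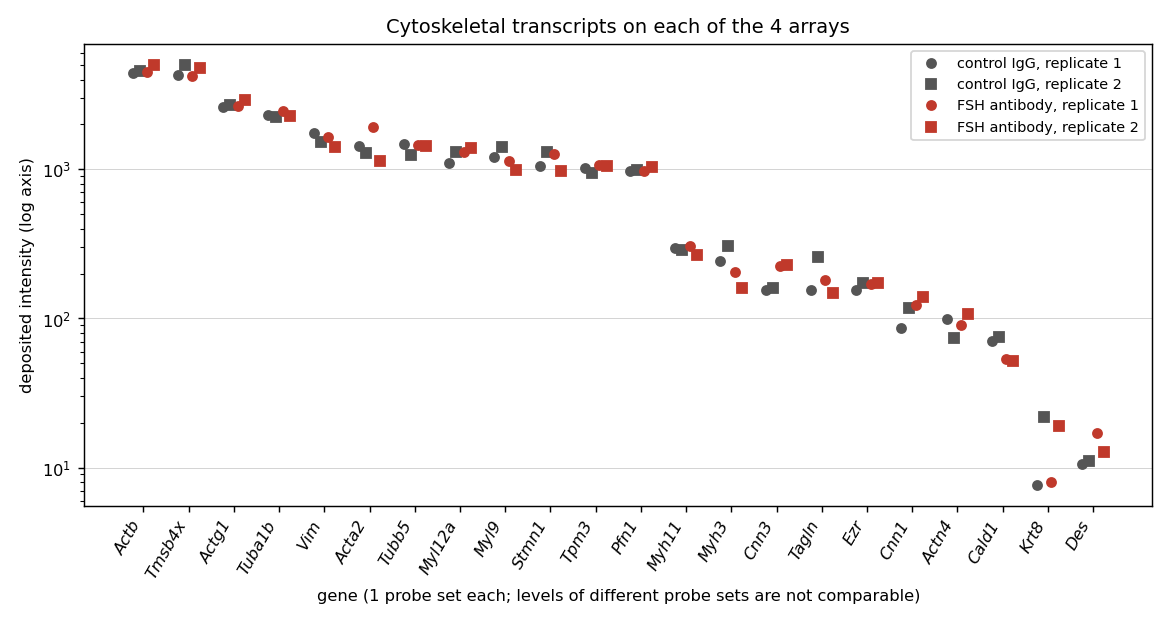
Deposited intensity on a log10 axis for a selection of the named member genes, 1 probe set each, with 1 point per array in each of the 2 groups. The points of a gene lie close together for Actb, Actg1, Pfn1 and Tuba1b, and apart by group for Cnn3, Cald1 and Myh3; levels of different probe sets are not comparable.

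Myosin heavy chains are the motors that pull on actin. The 5 tested genes all had values below 0 (median −0.31), but the median was −0.03 with no filter on dim probe sets and −0.10 with a stricter one, so it rests on which probe sets were tested. It was −0.47 without control array 1 and −0.15 without control array 2. Myh3, the embryonic skeletal-muscle heavy chain, had 1 probe set well above the filter, at 242.0 and 305.5 in controls and 204.8 and 160.9 after the antibody. Both antibody arrays lay below both controls. The change was −0.54 ± 0.20 (95% interval −0.98 to −0.11), with an unadjusted p of 0.0202 and an adjusted p of 0.534.

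The other 4 Myh3 probe sets lay at 1.2 to 19.6 and were not tested. Their changes were 0.10 to 0.24, the opposite sign, and these values sit near the lowest on the array. Markers of skeletal muscle outside the set were read beside it: 4 of 12 on the array were tested, with a summed intensity of 243.7 and 231.9 in controls and 252.1 and 248.7 after the antibody. None of their values was 0. Ckm, muscle creatine kinase, read 48.5 and 47.8 against 27.9 and 26.8, a change of −0.57 ± 0.20, below 0 like the tested Myh3 probe set. The 3 other tested markers lay on the other side without overlap, Pvalb at 0.32 ± 0.21, Casq1 at 0.38 ± 0.22 and Pygm at 0.29 ± 0.18, and the median of the 4 was 0.31. The part of muscle RNA in the Myh3 value was not tested.

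Myh11, the smooth-muscle heavy chain, was nearer to 0. Its brighter tested probe set read 297.3 and 285.9 in controls and 307.6 and 265.8 after the antibody, a change of −0.03 ± 0.17 (95% interval −0.41 to 0.36), and the dimmer one gave −0.13 ± 0.22. In each the antibody arrays overlapped the controls. The third Myh11 probe set was too dim, at 2.7 to 14.3. Myh1, a fast skeletal chain, read 61.4 and 80.2 against 53.1 and 54.2, a change of −0.31 ± 0.19. Myh6 and Myh7, the cardiac chains, gave −0.38 ± 0.22 and −0.10 ± 0.19 from probe sets that can pick up related heavy chains. Myh2, Myh4, Myh8 and Myh13 were not tested, at 1.1 to 32.4.

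Myh9, the heavy chain of nonmuscle myosin, was outside the set because both of its probe sets carry more than 1 gene entry. One read 17 and 33.8 in controls and 50.9 and 90.1 after the antibody, a change of 1.06 ± 0.28 (95% interval 0.43 to 1.68, adjusted p = 0.271). The other read 164.7 and 102.8 against 178.4 and 175.1, a change of 0.40 ± 0.22 (95% interval −0.09 to 0.88, adjusted p = 0.694). Both antibody arrays lay above both controls in each, and neither passed the test. The statements that no tested member differed by 1.5-fold and that each interval lay within 2-fold would not hold with the first of these probe sets among the members.

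Among light chains, the small subunits that bind and regulate the heavy chains, the regulatory chain Myl9 of smooth muscle came nearest to the threshold. It read 1212.1 and 1407.6 in controls and 1139.1 and 984.1 after the antibody, without overlap. The change was −0.30 ± 0.17 (95% interval −0.68 to 0.08, adjusted p = 0.711). The second Myl9 probe set read 1051.5 and 1360.4 against 1156.5 and 1035.3, with overlap, and gave −0.13 ± 0.18.

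The widely expressed regulatory light chains gave values near 0. Myl12a read 1096.0, 1305.9, 1299.9 and 1379.9 on control arrays 1 and 2 and antibody arrays 1 and 2, a change of 0.16 ± 0.17, and its other probe set gave 0.01 ± 0.18. Myl12b read 563.2 and 581.7 in controls against 622.6 and 612.8 after the antibody, 0.11 ± 0.16, while its second probe set gave −0.18 ± 0.18. In neither gene did both probe sets separate the groups. Essential light chain Myl6 read 96.8 and 78.1 against 84.2 and 86.6, and the related Myl6b gave 0.21 ± 0.17. Of the muscle light chains, Myl7 of the atrium gave −0.19 ± 0.19 and −0.29 ± 0.20. The tested probe sets of Myl11 of fast muscle, Myl1 and Myl2 gave 0.21 ± 0.19, 0.15 ± 0.21 and −0.04 ± 0.18. A dim Myl2 probe set, not tested, read 6.3 and 14.4 in controls and 19.8 and 32.7 after the antibody. It was higher without overlap (0.68), the opposite sign. The remaining probe sets, at 0.7 to 2.3 for Myl2 and 7.1 to 22.8 for Myl11, were not tested. Myl3 and Myl4, at 2.4 to 9.2, were not tested either. The 9 tested genes had a median of 0.11, 5 above and 4 below 0.

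Unconventional myosins carry cargo or bear tension at membranes, and 3 of 7 genes were tested. Myo1c gave −0.03 ± 0.18 and Myo9a 0.02 ± 0.19. Myo9b read 27.5 and 30.0 in controls but 10.4 and 41.5 after the antibody, the widest spread within groups on the log2 scale among the tested members. Its change of −0.20 ± 0.33 has a 95% interval of −0.95 to 0.55. Myo1a, Myo1d, Myo1e and Myo5b lay at 1.5 to 22 and were not tested.

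Tubulins, the subunits of microtubules, differed little between the groups. Tuba1b, a widely expressed alpha tubulin, read 2323.5 and 2240.4 in controls and 2443.4 and 2262.7 after the antibody, a change of 0.04 ± 0.15 (95% interval −0.30 to 0.39). Tubb5, a beta tubulin, read 1484.7 and 1249.7 against 1452.6 and 1439.3, at 0.09 ± 0.16, and its second probe set gave −0.08 ± 0.19. Antibody and control arrays overlapped in all 3 of these probe sets. Among left-out probe sets shared by several Tuba1 genes, those at −0.15 ± 0.16 and −0.18 ± 0.18 were lower without overlap. The one at −0.09 ± 0.16 overlapped. Tubb2b gave 0.09 ± 0.22 and Tubg1, gamma tubulin, −0.08 ± 0.19. Tuba4a, at 3.5 to 4.7, was not tested.

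Of the proteins of the gamma-tubulin ring that the rule took by symbol, Tubgcp4 had 3 probe sets, and each was lower on both antibody arrays than on both controls. The one with the smallest p read 83.4 and 71.0 in controls and 46.2 and 62.5 after the antibody, a change of −0.41 ± 0.20 (95% interval −0.85 to 0.03, adjusted p = 0.634). The other two gave −0.22 ± 0.21, from 35 and 32.6 against 23.5 and 30.5, and −0.14 ± 0.19, from 47.9 and 47.1 against 41.3 and 42.1. None of the 3 passed the test. Tubgcp6 gave 0.18 ± 0.20.

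Stathmin, Stmn1, binds free tubulin dimers and is abundant in dividing cells. It read 1048.2 and 1309.1 in controls and 1257.6 and 969.9 after the antibody, a change of −0.08 ± 0.19 (95% interval −0.51 to 0.35). Control array 2 was the highest and antibody array 2 the lowest, so the groups overlapped. The summed intensity of 18 germ cell markers ran in the same order, at 2086.1 and 3259.3 in controls and 2502.2 and 1797.9 after the antibody. Of these markers 15 were tested, with a median of −0.27 and none called. None of their values was 0. Bright markers weighed most in this sum, such as Sycp3, and Hspa2 at 150.1 and 505.9 in controls and 358.1 and 142.6 after the antibody. Not every marker ran in this order: Sycp1 was highest on control array 1, and Tnp1 and Adam2 on antibody array 2. The part of germ cell content in the Stmn1 values was not tested.

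Intermediate filaments were represented mainly by vimentin, the filament of Sertoli cells and of mesenchymal cells. Vim read 1740.3 and 1530.3 in controls and 1642.3 and 1414.6 after the antibody, a change of −0.10 ± 0.17 (95% interval −0.47 to 0.28, adjusted p = 0.924). Control array 1 was highest and antibody array 2 lowest, and the other two lay between. The sum of 14 Sertoli cell markers ran at 12049.3 and 11618.4 in controls and 11035.3 and 11724.2 after the antibody. Clu weighed most in this sum, at 6776.2 and 6770 in controls and 6439.6 and 7459.2 after the antibody. Of the 14 markers, 13 were tested, none was called and none of their values was 0. At an unadjusted p under 0.05, 2 lay higher and 4 lower, against 3.98% and 3.88% of all tested genes. Amh (0.52 ± 0.16) and Ctsl (0.56 ± 0.16) were higher. Inha (−0.90 ± 0.19), Shbg (−0.66 ± 0.16), Gja1 (−0.71 ± 0.20) and Aqp8 (−1.43 ± 0.28) were lower. The part of Sertoli cell content in the Vim values was not tested.

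The keratins, filaments of epithelia, were dim. Krt8 read 7.7 and 21.8 against 8.0 and 19.1, and the 2 probe sets of its partner Krt18 lay at 5.4 to 24.5, below the filter. Desmin, the muscle filament that peritubular cells carry, read 10.6 and 11 against 17.1 and 12.8, also below it. Krt1, Krt4, Krt5, Krt20 and Krt36, at 1.1 to 16.7, were likewise not tested. The tested keratins Krt10, Krt14 and Krt19 gave 0.12 ± 0.21, 0.10 ± 0.26 and −0.05 ± 0.25, each with overlapping groups. A further Krt19 probe set, below the filter, read 17.8 and 40.5 in controls and 13.5 and 16.9 after the antibody. It was lower without overlap (−0.49). The other Krt10 probe set lay at 1 to 4.2.

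The smooth-muscle genes were compared with other markers of peritubular myoid cells and smooth muscle. The 10 genes inside the set summed to 3908.7 and 4179.2 in controls and 4437.5 and 3412.7 after the antibody, and 9 were tested, with a median change of −0.03. The 7 genes outside it summed to 718.8 and 765.7 in controls and 774.7 and 657.9 after the antibody, with 5 tested, a median of −0.15 and none called. Both sums were highest on antibody array 1 and lowest on antibody array 2, and none of their values was 0. The brightest genes weighed most, Acta2 and Myl9 in the first sum and Csrp1 in the second. Csrp1 read 362.5 and 401.7 in controls and 453 and 401.2 after the antibody. Outside the set, Csrp2 (−0.47 ± 0.21), Pdgfrb (−0.35 ± 0.20) and Cav1 (−0.15 ± 0.18) were lower on both antibody arrays than on both controls. Csrp1 (0.15 ± 0.17) and Itga7 (0.03 ± 0.24) lay above 0 with overlapping groups. Acta2 and the brighter Myh11 probe set ran highest on antibody array 1 and lowest on antibody array 2, while the dimmer tested Myh11 probe set, at 29.9, 32.2, 22.7 and 32, was lowest on antibody array 1, and Tagln and Myl9 ran highest on control array 2. The part of myoid cell content in these values was not tested.

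**Figure D4:**
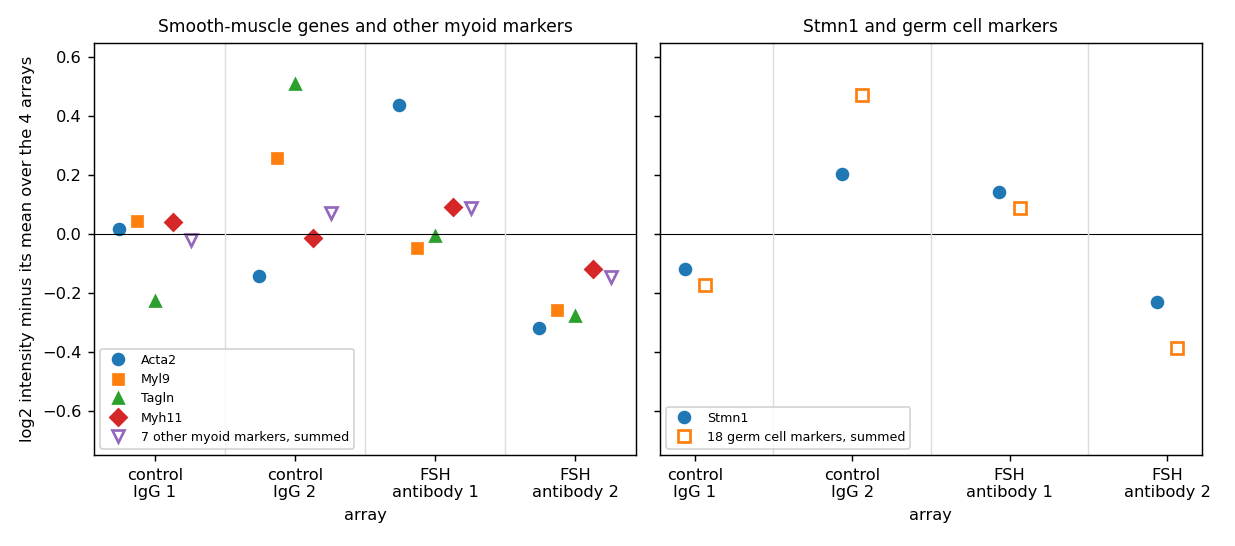
Log2 intensity minus its own mean over the 4 arrays, for smooth-muscle genes with the sum of 7 other myoid markers (left) and for Stmn1 with the sum of 18 germ cell markers (right), 1 symbol per array. Acta2 and the myoid sum, in which Csrp1 is the brightest gene, are highest on antibody array 1 and lowest on antibody array 2. Stmn1 and the germ cell sum, in which Sycp3 is the brightest gene, are highest on control array 2 and lowest on antibody array 2.

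Other genes of the cytoskeleton, in 5 lists, were read from the same fit by the brightest probe set of each gene. Of 135 listed genes 75 were on the array and 53 were tested. None was called (0.284% of all 3169 tested genes were), 4 were higher and 2 lower at an unadjusted p under 0.05, against 3.98% and 3.88% of all genes, and 32 of the 53 lay above 0. The genes of actin assembly, capping and severing (17 tested) had a median of 0.05, and those of adhesion and cross-linking (10) of 0.15. Microtubule-associated proteins and motors (16) had a median of 0.09, other intermediate filaments and lamins (7) of 0.14, and sarcomere proteins (3) of 0.21.

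Several of these genes had a probe set that stood further from 0 than any tested member, but seldom in all of its probe sets. Add1, an adducin that caps actin and joins it to spectrin, read 41.8 and 39.2 in controls and 14.4 and 12.2 after the antibody in 1 probe set, a change of −0.95 ± 0.21 (adjusted p = 0.170). Its 3 other tested probe sets gave 0.25, 0.12 and −0.10. Ina, the filament alpha-internexin, read 58.0 and 38.1 against 14.9 and 19.2 in 1 probe set, −0.94 ± 0.23 (adjusted p = 0.227), and −0.15 ± 0.21 in the other. The first Add1 probe set reached an adjusted p of 0.0197 without antibody array 1, and that of Ina 0.0116 without antibody array 2; their adjusted p-values without the other arrays ran from 0.0639 to 0.766 and from 0.0620 to 0.684. Add3, a further adducin, gave −0.58 ± 0.21, −0.35 ± 0.18 and 0.12 ± 0.18.

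Mapre1, which follows growing microtubule ends, read 468.0 and 488.1 in controls and 347.1 and 365.2 after the antibody, without overlap, a change of −0.41 ± 0.16 (adjusted p = 0.580). Dync1h1, the dynein heavy chain that walks to microtubule minus ends, read 345.8 and 287.2 against 430.3 and 416.9, also without overlap, 0.41 ± 0.17 (adjusted p = 0.605). Dync1li2, a light intermediate chain of the same motor, gave −0.61 ± 0.24 from the dimmest of its 3 tested probe sets and 0.18 and 0.02 from the other two; the remaining probe set, at 0.7 to 1.8, was not tested. Lmnb1, a nuclear lamin, gave −0.48 ± 0.21 and Lmna 0.26 ± 0.17. Coro1a, an actin-binding coronin of leukocytes, gave 0.49 ± 0.19 and Gap43, a cortical actin regulator of neurons, 0.49 ± 0.20. The 7 leukocyte markers on the array summed to 281 and 274.5 in controls and 318.9 and 355.7 after the antibody, with 5 tested, 3 above and 2 below 0, a median of 0.38, none called and none of their values at 0. Lyz2 gave 0.60 ± 0.22 and 1 probe set of C1qb, a complement chain of macrophages, −0.71 ± 0.23, each without overlap. The other C1qb probe set gave 0.06 ± 0.26 with overlapping groups. The part of leukocytes in the Coro1a value was not tested.

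The remaining named genes came from the lists of adhesion and cross-linking and of sarcomere proteins. Espn, an actin bundler of Sertoli cell junctions, gave 0.32 ± 0.20 with overlapping groups, and Tln1, talin, 0.33 ± 0.21. Of sarcomere proteins, Tnni3 gave 0.42 ± 0.18 without overlap and 0.21 ± 0.22 with overlap. Mybph gave 0.39 ± 0.20 and Tnnt2 −0.09 ± 0.19. The other Mybph probe set, too dim to test, read 18.1 and 16 in controls and 14.3 and 8.2 after the antibody. It was lower without overlap (−0.29), the opposite sign. None of the tested probe sets passed the adjusted threshold.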

How the data were processed

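Expression was measured on 4 arrays, 2 per group, grouped by source name. The authors deposited 1 linear intensity per probe set. No label or header names the software, background correction or scaling, but after trimming 2% at each end every array averaged 125, so the arrays share 1 scale. No detection calls were used. The constant 16 was added and log2 taken. The 59 control probe sets and those below the 40th percentile of mean log2 (5.30) were left out. The 5252 others were fitted with limma 3.58.1 (R 4.3.3), lmFit and eBayes with a trend, and Benjamini-Hochberg adjustment over all of them; the fit was tested on simulated data. Named genes were those 12 members with the smallest p, the 3 brightest genes per role, and fixed genes; other cytoskeletal genes were the 3 of each list with the smallest p. One further list of cytoskeletal genes is not reported here. The members and lists were chosen with earlier results of these data known. Gene symbols are those of the platform annotation, updated by Entrez number through RefSeq. Alternatives changed the constant, filter, scaling, variance trend, replicate block and arrays.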

Additional observations from a re-analysis of the deposited data

How the results depend on the processing

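The count of 14 probe sets passing over the array became 0 with quantile scaling, 4 with median centring and 0 with no filter, and 0 to 153 with 1 array left out: 0 without either control array, 153 without antibody array 1 and 94 without antibody array 2. No member of the set passed under any of the 12 alternatives, and the smallest adjusted p of any of them was 0.104, for Myh3 without antibody array 1. Member counts at an unadjusted p under 0.05 were 3, and 6 with no filter, where 106 members were tested. The counts of the alternatives are given without the share over all probe sets, so they are no result about the members. They were 4 under quantile scaling and under median centring, there 1 higher (Cnn3) and 3 lower (Myh3, Cald1, Tubgcp4), without Tpm1. They were 3 with no intensity trend, where the dimmer Tpm1 probe set took the place of the other, and 2 to 5 when 1 array was left out (2 without control array 2, 5 without antibody array 1). The replicate numbers are not shown to pair the arrays. Over the 5252 tested probe sets, the difference of array 1 minus array 2 in controls correlated at 0.00386 with that after the antibody. With a replicate block 39 probe sets passed, none of them a member. Of the 28 role and list medians, read under each alternative that could be run, 33 of 363 values moved by at least the spread between arrays. Cnn3 stayed between 0.39 and 0.52 and Myh3 between −0.70 and −0.38. Of 53 named member probe sets, 20 kept their direction in each alternative that tested them (12 of these in all 12, and 8 in 11, being too dim for the stricter filter). Among these 20, the change moved by over 1.5 times with 1 array left out for Cnn1 (0.14 to 0.53), Tpm1 (0.28 to 0.57), Tpm3 (0.047 to 0.17), Tpm4 (0.086 to 0.50), Myh1 (−0.47 to −0.15), Myh6 (−0.57 to −0.18), Myl7 (−0.30 to −0.069), Myl9 (−0.41 to −0.19), Myl12a (0.036 to 0.29), Myl12b (−0.29 to −0.071) and Tubgcp4 (−0.33 to −0.098 and −0.58 to −0.24). With scaling, Myo9a turned to −0.024 under quantile scaling and −0.022 under median centring, and Pfn1 (−0.0062), Tuba1b (−0.0033) and Myl12a (−0.036) turned under median centring. With 1 array left out, 33 turned within these ranges: Tubb5 −0.26 to 0.092 and −0.038 to 0.21, Myo9a −0.087 to 0.13, Tpm4 −0.047 to 0.15, Tpm2 −0.13 to 0.23, Tpm3 −0.42 to 0.12 and −0.11 to 0.20, Tpm1 −0.22 to 0.093 and −0.12 to 0.043, Actg2 −0.19 to 0.17, Tmsb4x −0.16 to 0.069, Tagln −0.30 to 0.12 and −0.60 to 0.078, Pfn1 −0.0038 to 0.084, Acta2 −0.25 to 0.50, −0.49 to 0.21 and −0.27 to 0.38, Tuba1b −0.012 to 0.098, Stmn1 −0.27 to 0.10, Krt14 −0.28 to 0.49, Krt10 −0.036 to 0.27, Myh11 −0.28 to 0.029 and −0.13 to 0.073, Myl9 −0.31 to 0.057, Actn4 −0.013 to 0.34, Actb −0.0089 to 0.15, Myl12a −0.16 to 0.18, Myh7 −0.22 to 0.027, Actg1 −0.0030 to 0.14, Vim −0.20 to 0.0090, Ezr −0.010 to 0.14, Myo1c −0.15 to 0.078 and Myo9b −0.76 to 0.36. The causes were not tested. With 2 arrays a group, their number limits the precision; without an array, the lone array is assumed to vary like the other group.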
